A study of Homo sapiens with 15 samples.

Results

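The mechanistic target of rapamycin complex 1 (mTORC1) is a kinase complex at the surface of the lysosome that promotes protein synthesis and growth when amino acids, growth factors and energy are in supply. A small group of proteins holds it back. The sestrins act on the GATOR complexes of the amino acid branch, and SESN2 is a leucine sensor. REDD1, encoded by DDIT4, and its relative REDD2, encoded by DDIT4L, act through the tuberous sclerosis complex of TSC1 and TSC2, which switches off the small GTPase RHEB, the direct activator of mTORC1. DEPTOR binds mTOR itself, and the 4E-binding proteins EIF4EBP1 and EIF4EBP2 block cap-dependent translation until mTORC1 phosphorylates them. Several of these genes are themselves stress genes: SESN2 and DDIT4 are known targets of ATF4, the transcription factor of the integrated stress response, DDIT4 also of hypoxia and glucocorticoids, and SESN3 of FOXO factors.

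The mRNA of these 10 genes (SESN1, SESN2, SESN3, DDIT4, DDIT4L, DEPTOR, EIF4EBP1, EIF4EBP2, TSC1 and TSC2) was measured on 15 single-colour Agilent arrays in A2058, an established human malignant melanoma cell line. The genes were chosen by name, and their 12 probes were found by matching the RefSeq accession of each probe on the array to the gene. All but DDIT4L, 9 genes, were among the 26825 genes and unnamed transcripts tested over the whole series. All cultures were grown in EMEM with 10% FBS and treated for 8 h, with 3 arrays per group, one from each of 3 independent experiments. Groups were DMSO alone, NP at 3 µM, water alone (W), metformin at 5 mM (MET) and phenformin at 50 µM (PHEN). NP is the sample label and its title names neopetasin, whereas the publication on these arrays calls the compound at this dose, time and cell line petasin. The publication describes petasin, metformin and phenformin as inhibitors of mitochondrial complex I. The doses differ, so the effects of the compounds are given side by side and are not compared. The line was not genetically altered, and a bulk culture gives no way to tell fewer expressing cells from less RNA per cell.

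Levels are log2 signals minus the 75th percentile of the same array, so that a level of 0 is the signal of a probe at that percentile and a difference of 1 is a 2-fold change. Between 25803 and 45042 of 58201 probes per array were well above background, with group medians of 28558 in DMSO, 27237 in NP, 36839 in W, 37922 in MET and 34605 in PHEN. DMSO and NP arrays shared slides 1 and 2, and W, MET and PHEN arrays shared slides 3 and 4, so the vehicle and the slide cannot be told apart. Of 8 melanocyte markers, 7 were well above background on all 15 arrays and TYR on 13. Of 15 markers of keratinocytes, fibroblasts, leukocytes and endothelial cells, 9 were also above background on all arrays, and KRT1 and KRT5 were on none. None of the 12 tested passed the thresholds in a treated group against its vehicle. Between the vehicles 4 of them did, beside 10.6% of all features.

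The promoters of SESN2 and DDIT4, whose transcripts had the highest fold changes of the 9 genes tested, are shown first. Each run is the 250 bases before the start of the gene in RefSeq, on the plus strand of GRCh38.p14. Capitals mark the CCAAT box, here on the opposite strand as ATTGG, and the letters ACGTG, the core that hypoxia-inducible factors bind. The SESN2 promoter is chr1:28259268-28259517 and the DDIT4 promoter is chr10:72273674-72273923.
SESN2: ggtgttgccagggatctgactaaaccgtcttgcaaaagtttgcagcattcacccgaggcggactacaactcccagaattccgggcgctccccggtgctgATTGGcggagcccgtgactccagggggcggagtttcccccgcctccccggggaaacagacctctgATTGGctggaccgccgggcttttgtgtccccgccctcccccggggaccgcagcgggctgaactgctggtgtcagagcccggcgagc
DDIT4: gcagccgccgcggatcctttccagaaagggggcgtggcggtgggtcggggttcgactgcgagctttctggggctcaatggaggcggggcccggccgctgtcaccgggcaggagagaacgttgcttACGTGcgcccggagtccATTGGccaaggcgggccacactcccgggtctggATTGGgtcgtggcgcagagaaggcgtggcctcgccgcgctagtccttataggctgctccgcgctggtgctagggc

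Both promoters held 2 CCAAT boxes, which begin 151 and 86 bases before the start in SESN2 and 108 and 75 bases before it in DDIT4. A CCAAT box on either strand was present in 32.0% of all 35116 promoters listed. Of the 11 promoters of these genes 4 held one, among them promoters of SESN1. The form ACGTG of the hypoxia core occurred once in the DDIT4 window, 125 bases before the start, and in 18.5% of all promoters. A TSC2 promoter held ACGTG too. Other forms of that core were not searched for. The core of the ATF4 element, TGATGNAA, was in neither window and in 3.14% of all promoters. Of the 11 promoters listed for 8 of the 10 genes only that of TSC2 held it, 110 bases before the start as TGATGCAA. Other forms of the ATF4 element, and bases outside the 250 before the start, were not searched. The forkhead letters GTAAACA, the site of FOXO factors, were in none of the 11 and in 2.98% of all. All searches covered both strands, and the CCAAT box and the other motifs did not overlap in the runs shown. Entries for DEPTOR and EIF4EBP1 were not used here.

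SESN2 was higher with each of the 3 compounds. Its level was -0.65, -1.16 and -0.64 in DMSO replicates 1 to 3 and 0.30, 0.16 and 0.57 in NP. The lowest NP array lay above the highest DMSO array. The level was -0.80, -1.11 and -0.84 in W, -0.20, -0.15 and 0.01 in MET and 0.00, -0.03 and 0.25 in PHEN. Every MET and PHEN array lay above every W array, and the 3 W arrays lay within the range of the 3 DMSO arrays. Group means were -0.82 ± 0.30 in DMSO, 0.34 ± 0.21 in NP, -0.92 ± 0.17 in W, -0.11 ± 0.11 in MET and 0.07 ± 0.15 in PHEN (SD, n = 3).

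In a linear model of all 15 arrays with the replicate number as a block (limma, Benjamini-Hochberg adjustment over 26825 features), SESN2 rose with NP by 1.16 on the log2 scale (SE 0.12, 95% interval 0.90 to 1.42), a 2.23-fold increase, with an adjusted p of 0.0295. It had the smallest p of all features in that comparison. With PHEN it rose by 0.99 (95% interval 0.74 to 1.25), a 1.99-fold increase, with an adjusted p of 0.0406, and ranked 3 by p. With MET the difference was 0.81 (95% interval 0.55 to 1.06), a 1.75-fold difference, and its adjusted p of 0.214 missed the threshold although it ranked 4. No feature passed in the MET comparison, where the smallest adjusted p in limma was 0.204. In limma 659 features had an unadjusted p of 0.05 or less, fewer than that threshold gives when nothing differs. The count was 2495 with the block within each slide set and 4018 with only the MET and W arrays fitted. SESN2 was not called with MET in either setting. A paired test at an unadjusted p and a fold of 1.5 or more passed 124 features. The 9 single pairs of treated and vehicle arrays differed by 0.95, 1.32 and 1.21 with NP, 0.60, 0.96 and 0.86 with MET and 0.80, 1.09 and 1.09 with PHEN. The pairs on the first slide of each set averaged 1.14, 0.78 and 0.95, and the pair on the second slide gave 1.21, 0.86 and 1.09.

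Among the 9 genes tested SESN2 was the only one called, that is, past an adjusted p of 0.05 and a fold of 1.5 in either direction. It was called with NP, against 10 of 26825 features called in that comparison (0.0373%), and with PHEN, against 7 (0.0261%), and none of the 9 was called with MET, against 0 (0%). The call rested on the pooled spread of 15 arrays and on the block: it was lost in both comparisons without the block (adjusted p = 0.0622 and 0.275), when only the groups compared were fitted (0.671 and 0.735) and without any 1 replicate number, with adjusted p in limma of 0.288 or more. The size moved less than the call. Over 16 settings the NP difference stayed between 0.83 and 1.26, over 17 settings the MET difference between 0.58 and 0.91 and the PHEN difference between 0.77 and 1.09.

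**Figure D1:**
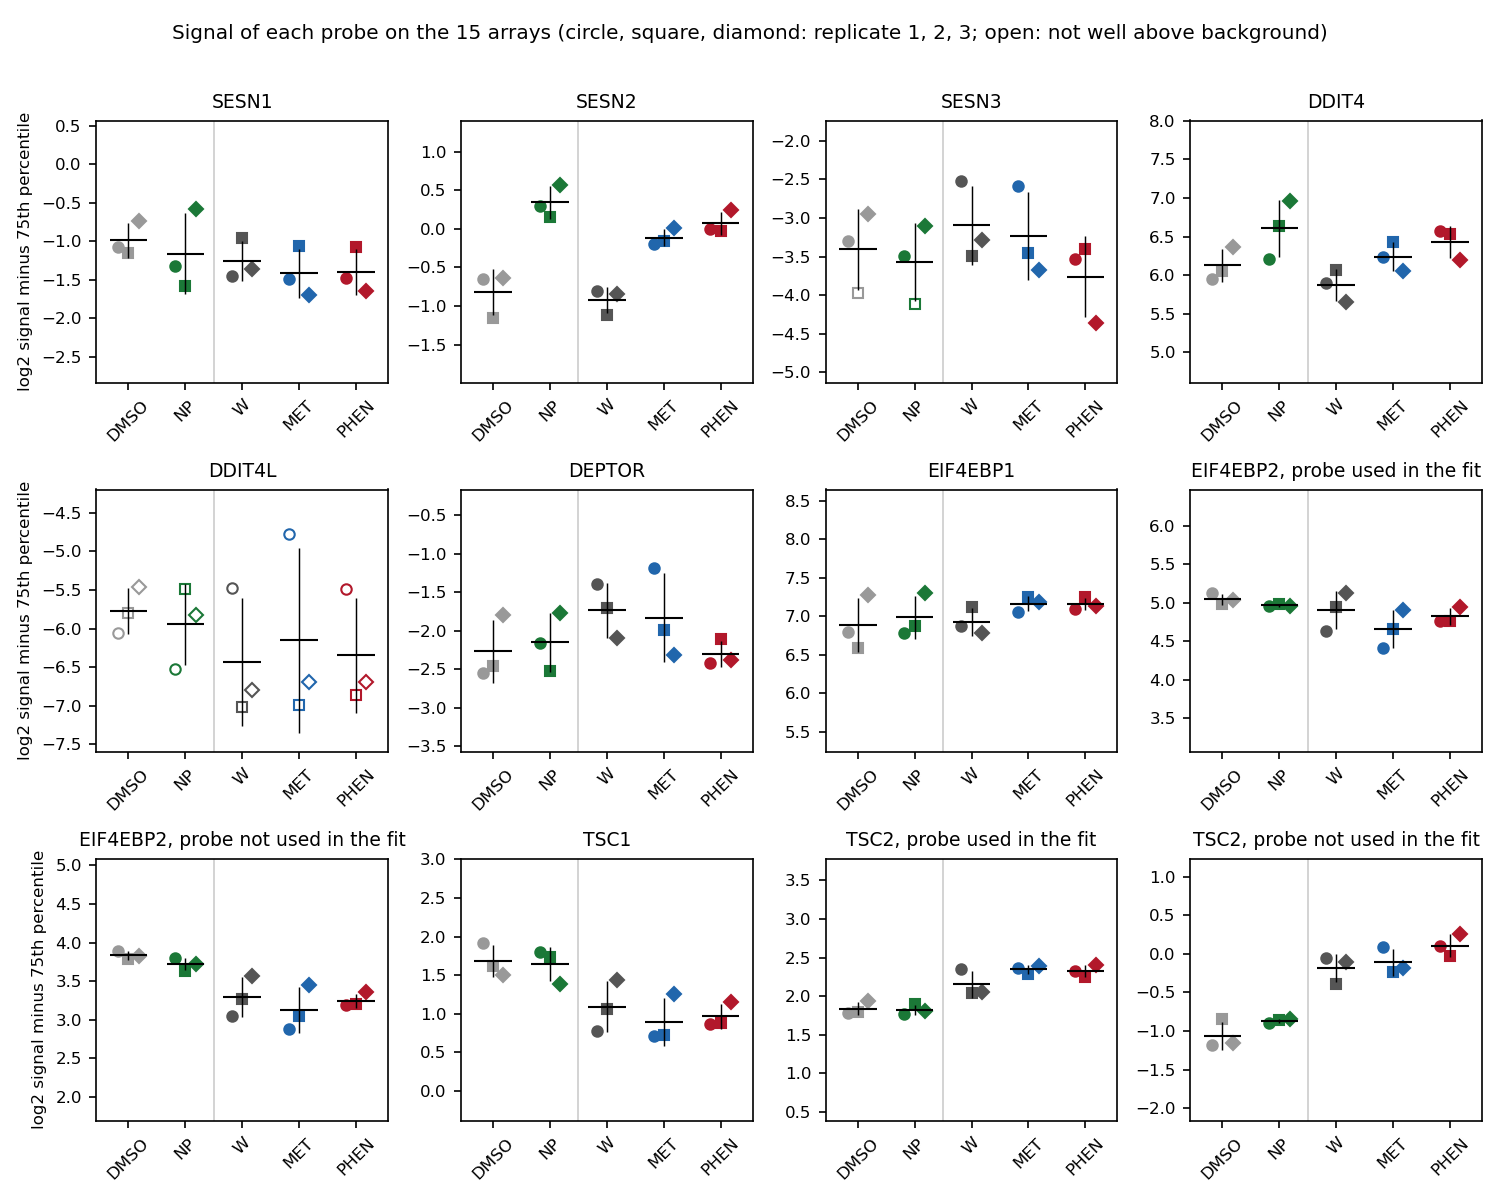
Level of each of the 12 probes on the 15 arrays (y axis, log2 signal minus the array's 75th percentile, each panel spanning the same number of units) by group (x axis), with circles, squares and diamonds for replicates 1, 2 and 3, a horizontal line for the group mean, a vertical line for its SD, and a grey line between the 2 slide sets. In the SESN2 panel all treated arrays lie above all vehicle arrays, DDIT4 is higher in each treated array than in the vehicle array of its number, and the DDIT4L symbols are open because no array was well above background.

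**Figure D2:**
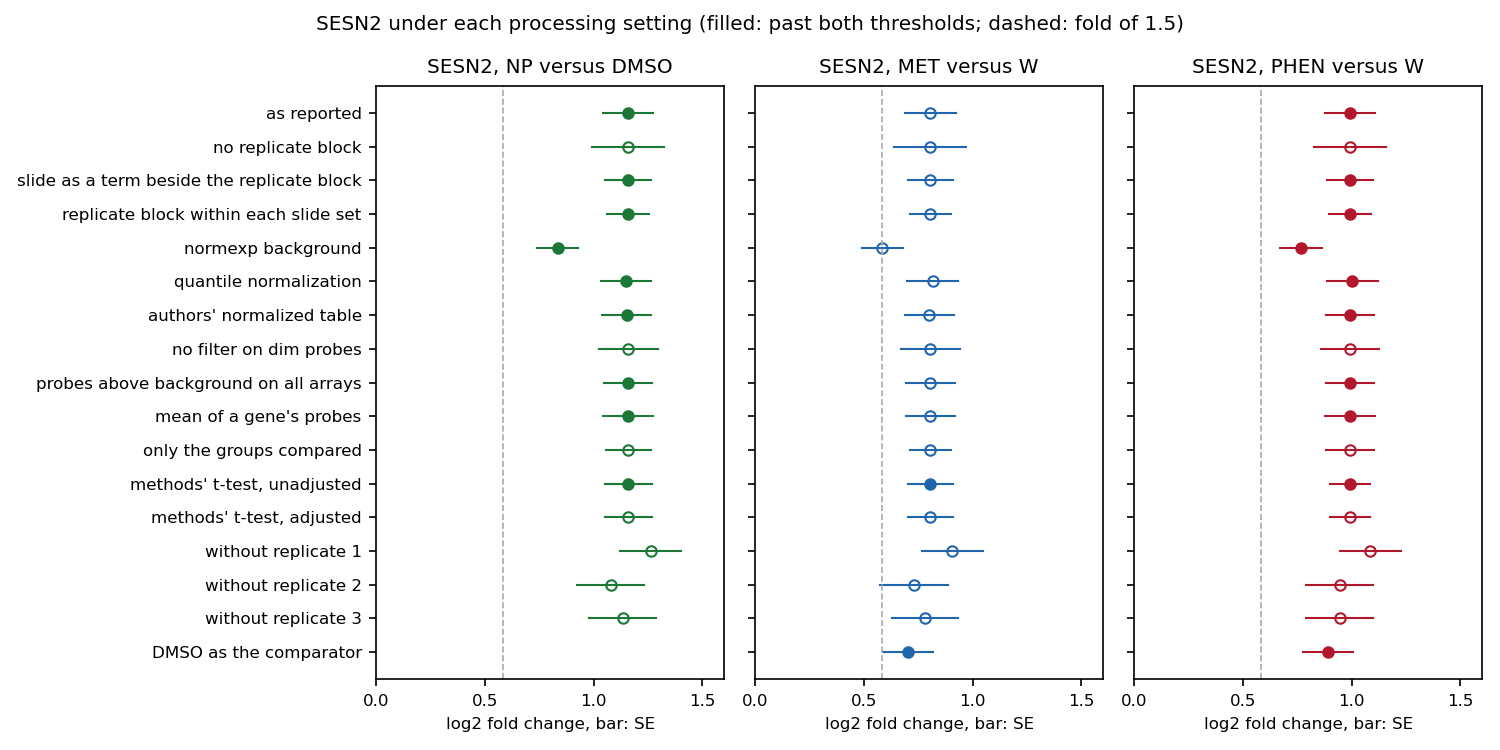
SESN2 log2 fold change (x axis, bar is SE) under each processing setting (y axis) in the 3 comparisons, filled where both thresholds were passed (for the unadjusted paired test, the p itself). The values stay right of 0 in every setting, and filled points number 9 of 16 with NP, 2 of 17 with MET and 10 of 17 with PHEN.

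The other sestrins did not follow SESN2. SESN1, another stress-inducible sestrin, had levels of -1.08, -1.16 and -0.73 in DMSO and -1.32, -1.58 and -0.58 in NP, and of -1.45, -0.96 and -1.36 in W, -1.50, -1.07 and -1.69 in MET and -1.47, -1.07 and -1.65 in PHEN. The groups overlapped in every comparison. Its differences were -0.17 with NP (95% interval -0.78 to 0.44), -0.16 with MET and -0.14 with PHEN, none called. SESN3, the sestrin known as a FOXO target, was dim, and was well above background on all arrays but DMSO and NP replicate 2. Its levels were -3.30, -3.97 and -2.95 in DMSO, -3.50, -4.11 and -3.10 in NP, -2.51, -3.49 and -3.28 in W, -2.58, -3.45 and -3.67 in MET and -3.53, -3.40 and -4.36 in PHEN. The PHEN difference of -0.66 (95% interval -1.46 to 0.14) came from pairs of -1.01, 0.10 and -1.08, and the groups overlapped. With NP and MET the SESN3 differences were -0.16 and -0.14.

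DDIT4 was higher in every treated array than in its vehicle pair, by amounts that did not pass the adjusted test. It was printed 10 times on the array, and its spots were averaged. Its level was 5.95, 6.06 and 6.36 in DMSO and 6.21, 6.64 and 6.96 in NP, which overlapped at 1 NP array. It was 5.90, 6.07 and 5.65 in W and 6.24, 6.43 and 6.05 in MET, which overlapped at 1 MET array, and 6.57, 6.54 and 6.19 in PHEN, which lay above all W arrays. The fitted differences were 0.48 with NP (95% interval 0.03 to 0.93, unadjusted p = 0.0397 in limma), 0.37 with MET (95% interval -0.08 to 0.82, unadjusted p = 0.1) and 0.56 with PHEN (95% interval 0.11 to 1.01, unadjusted p = 0.02), or 1.39-fold, 1.29-fold and 1.48-fold. All were below the fold threshold, and the adjusted p was above 0.99 in each. The pair differences were 0.26, 0.58 and 0.60 with NP, 0.34, 0.36 and 0.40 with MET and 0.67, 0.47 and 0.54 with PHEN. DDIT4L, the other REDD gene, was not well above background on any array and was not tested.

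DEPTOR, the inhibitor that binds mTOR, had levels of -2.55, -2.46 and -1.80 in DMSO, -2.16, -2.53 and -1.76 in NP, -1.39, -1.71 and -2.10 in W, -1.19, -1.99 and -2.31 in MET and -2.42, -2.11 and -2.37 in PHEN. The 3 PHEN arrays lay just below the 3 W arrays, the nearest at -2.11 against -2.10. The differences were 0.12 with NP, -0.10 with MET and -0.57 with PHEN (95% interval -1.28 to 0.15), none called. Without replicate 1, whose PHEN pair differed by -1.03, the other pairs were -0.40 and -0.27. In that replicate 45042 probes were well above background on the W array and 34982 on the PHEN array. Whether this bears on the difference was not tested.

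EIF4EBP1, the 4E-binding protein gene that ATF4 is known to drive in some cells, differed by 0.10 with NP, 0.24 with MET and 0.23 with PHEN (95% interval -0.15 to 0.62), none called. Its levels were 6.79, 6.59 and 7.27 in DMSO, 6.78, 6.87 and 7.30 in NP, 6.87, 7.12 and 6.78 in W, 7.05, 7.25 and 7.19 in MET and 7.09, 7.25 and 7.14 in PHEN. It was higher in all 3 pairs with MET and PHEN, with overlapping groups. EIF4EBP2, the 4E-binding protein prominent in brain, went the other way in sign, with differences of -0.08, -0.24 and -0.08. Its 3 MET pairs were -0.22, -0.29 and -0.22. A second EIF4EBP2 probe gave -0.12 with NP, -0.17 with MET and -0.05 with PHEN, the same signs.

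TSC1 and TSC2, the partners of the complex through which REDD1 acts, stayed near their vehicles. TSC1, which stabilises TSC2, had levels of 1.92, 1.62 and 1.505 in DMSO and 1.80, 1.74 and 1.39 in NP, and of 0.78, 1.06 and 1.44 in W, 0.71, 0.72 and 1.26 in MET and 0.87, 0.88 and 1.15 in PHEN. Its differences were -0.04, -0.20 and -0.13 (95% interval with NP -0.51 to 0.43). TSC2, which carries the GTPase-activating activity toward RHEB, had levels of 1.78, 1.79 and 1.94 in DMSO, 1.76, 1.89 and 1.80 in NP, 2.36, 2.04 and 2.06 in W, 2.36, 2.28 and 2.39 in MET and 2.32, 2.25 and 2.40 in PHEN. Its differences were -0.02, 0.19 and 0.17. A second TSC2 probe, matched to another RefSeq transcript, gave 0.19 with NP, 0.08 with MET and 0.29 with PHEN (unadjusted p = 0.0652 in limma), so the 2 probes differed in sign with NP. Neither probe was called in a treated group.

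**Figure D3:**
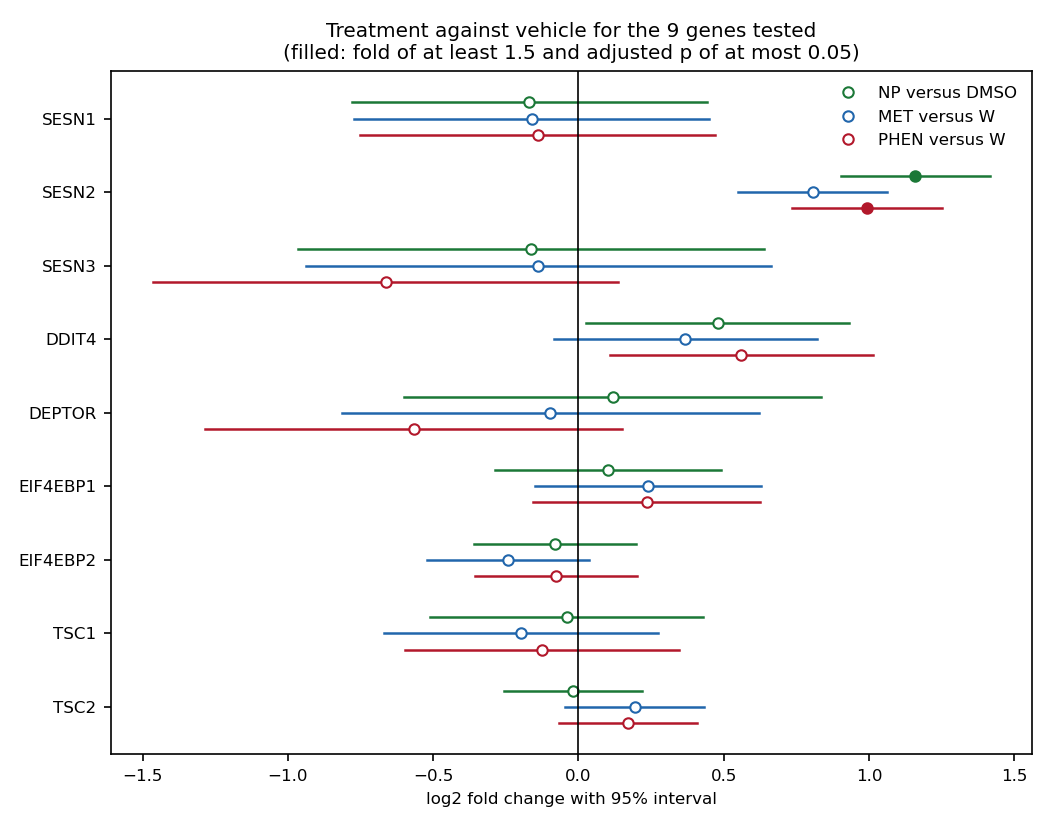
Log2 fold change against vehicle (x axis, bar is the 95% interval) of the 9 genes tested (y axis), in green for NP against DMSO, blue for MET against W and red for PHEN against W, filled where both thresholds were passed. SESN2 is the only gene whose 3 intervals all exclude 0, those of DDIT4 exclude 0 with NP and PHEN, and those of the other 7 genes include 0.

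Over the 9 genes the median difference was -0.02 with NP, -0.10 with MET and -0.08 with PHEN, beside medians of -0.01, 0.00 and -0.03 over all features, and 4 of 9 were above 0 in each. The same sign in all 3 pairs was seen for 3 of the 9 genes with NP, beside 33.3% of all features, for 7 with MET, beside 42.5%, and for 5 with PHEN, beside 27.0%. The 7 with MET were SESN2, DDIT4, EIF4EBP1 and TSC2 upward and SESN1, EIF4EBP2 and TSC1 downward. MET and PHEN were compared with the same W arrays, so their differences share that side.

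Between the vehicles, which were on different slides, SESN2 differed by 0.10 (DMSO minus W, 95% interval -0.15 to 0.36) and DDIT4 by 0.25. None of the 9 genes was called between DMSO and W, where 10.6% of all features were. TSC1 was 0.59 higher in DMSO (adjusted p = 0.0803 in limma) with no overlap of the 3 arrays a group, TSC2 was 0.31 lower (adjusted p = 0.0688), and DEPTOR was 0.53 lower (adjusted p = 0.276). The second TSC2 probe was 0.88 lower in DMSO (adjusted p = 0.00489 over 32914 probes), past both thresholds, and the second EIF4EBP2 probe 0.54 higher (adjusted p = 0.0222), below the fold threshold. With DMSO in place of W as the comparator, as the study's methods have it, SESN2 was called with MET (0.70, adjusted p = 0.00349) and with PHEN (0.89, adjusted p = 0.00227), and TSC1 was called lower (-0.79 and -0.72, adjusted p = 0.0228 and 0.0428). In those 2 comparisons 17.0% and 10.3% of all features were called.

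The rest of the pathway was counted over lists of named genes. The list of mTORC1 subunits, RHEB and downstream effectors held 16 genes, all tested. None was called in the 3 comparisons with vehicle, and the medians were 0.00 with NP, 0.04 with MET and 0.03 with PHEN. The largest differences there, in genes above background on all arrays, were those of RPS6KB1, the S6 kinase gene, with NP (0.44), AKT1S1, which encodes the mTORC1 inhibitor PRAS40, with NP (-0.23) and MET (0.16), and TFE3, a lysosomal transcription factor, with MET (0.14). With PHEN they were those of MLST8, an mTORC1 subunit (0.11), and MTOR, the kinase itself (0.11).

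Of 29 genes for amino acid sensing at the lysosome, among them the GATOR genes on whose products sestrins act, none was called with any compound. The medians were -0.02, 0.02 and 0.03. Of the genes above background on all arrays, the largest differences with NP were those of FNIP2, a partner of folliculin, and LAMTOR1, the membrane anchor of Ragulator (-0.22 each). CASTOR2, a relative of the arginine sensor, was at 0.25 and KPTN, a KICSTOR subunit, at 0.21 with MET. KICS2, another KICSTOR subunit, was at -0.17 and WDR24, a GATOR2 subunit, at 0.16 with PHEN.

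None of the 17 genes for growth factor and energy inputs and mTORC2 was called either, with medians of -0.03, 0.01 and 0.05. GRB10, an adaptor that restrains insulin receptor signalling and is itself an mTORC1 substrate, had the largest difference of this list with each compound. Its level was 3.38, 3.21 and 3.75 in DMSO and 4.06, 4.26 and 4.63 in NP, a difference of 0.87 (95% interval 0.52 to 1.21, adjusted p = 0.136 in limma) with no overlap. In W it was 2.90, 3.21 and 3.23, in MET 3.43, 3.54 and 3.58 and in PHEN 3.74, 3.77 and 3.54, differences of 0.40 and 0.57 with an adjusted p above 0.99. The NP call for GRB10 appeared with a slide term (adjusted p = 0.0265), with the block within each slide set (0.0347) and with normexp background correction (0.0239). IRS2, an insulin receptor substrate, was at 0.39 with NP, and PRKAA1, an AMPK catalytic subunit, at -0.27 with MET and -0.22 with PHEN.

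**Figure D4:**
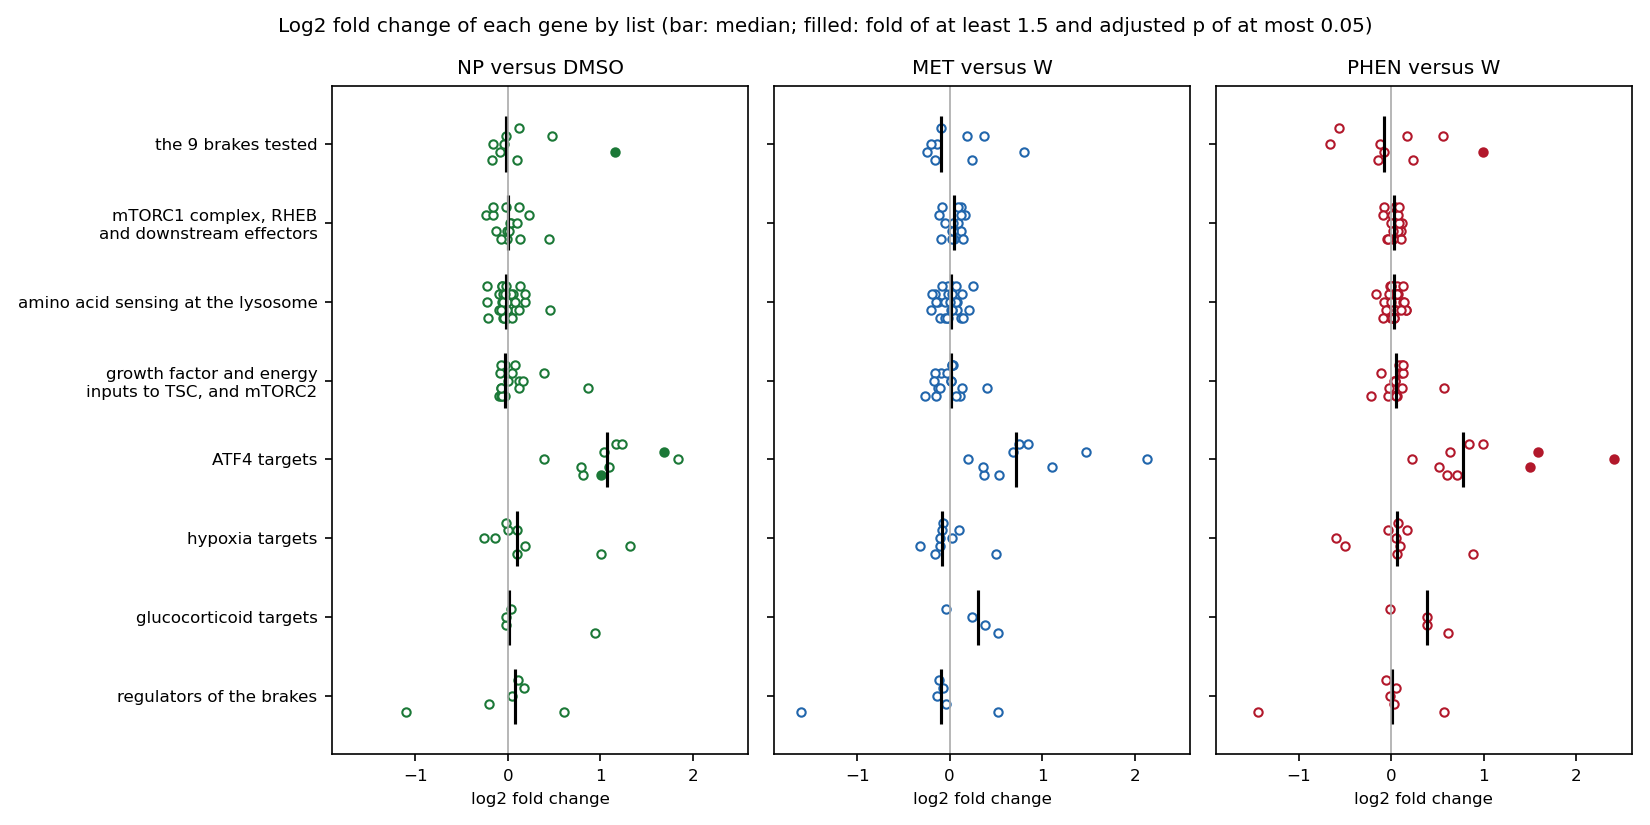
Log2 fold change (x axis) of each tested gene in the 9 brakes and the 7 lists (y axis) for NP against DMSO, MET against W and PHEN against W, with the median of each list as a black bar and called genes filled. The 3 mTORC1 pathway lists sit around 0 with GRB10 as the point farthest right, and all 10 ATF4 targets lie right of 0 in each panel.

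Among the stress genes that share known regulators with the brakes, the list of ATF4 targets held the only genes called as fitted. With each compound against its own vehicle all 10 of its differences were above 0. The share of all features above 0 was 46.2% with NP, 51.0% with MET and 40.5% with PHEN. The medians of the list were 1.07, 0.72 and 0.77. With NP 2 of them were called: NUPR1, a small stress-induced nuclear protein, rose by 1.69 (adjusted p = 0.0295) and TRIB3, a pseudokinase, by 1.01 (adjusted p = 0.0459). With PHEN 3 were called: CHAC1, a glutathione-degrading enzyme, rose by 2.40 on the log2 scale and NUPR1 by 1.58, and ASNS, asparagine synthetase, rose 2.83-fold (adjusted p = 0.0406 each). None was called with MET, where CHAC1 was at 2.14 and NUPR1 at 1.48 (adjusted p = 0.204 each). With a slide term 9 of the 10 were called with NP and 1, NUPR1, with MET (adjusted p = 0.0377), and with the block within each slide set 8 and again NUPR1 (adjusted p = 0.0490). None was called with any compound without the block or with a replicate left out. This list was chosen with earlier results of these arrays known. Between the vehicles 6 of the 10 were called, beside 10.6% of all features. The 6 were higher in DMSO than in W, ASNS by 1.57 and CHAC1 by 1.16 among them. SESN2 differed by 0.10 and TRIB3 by 0.14. With DMSO as the comparator, on other slides, 3 of the 10 were called with MET, 2 of them higher, and 4 with PHEN, 3 of them higher. Of all features 17.0% and 10.3% were called in those comparisons. SLC7A11 was called lower there, at -1.06 with MET and -0.90 with PHEN (adjusted p = 0.00274 and 0.00719 in limma). ASNS was then at -0.46 with MET and -0.07 with PHEN, and PSAT1 at -0.45 and -0.22, none of them called.

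The lists for the other known regulators had no called gene in the 3 comparisons as fitted, though VEGFA and TSC22D3 passed under some alternatives. The 9 hypoxia targets had medians of 0.10, -0.08 and 0.06. VEGFA, the angiogenic growth factor and also a known ATF4 target, was at 1.01 with NP (adjusted p = 0.0543), 0.50 with MET and 0.88 with PHEN (adjusted p = 0.146). VEGFA was called with NP under 7 alternatives with an adjusted p of 0.00809 to 0.0491, and with PHEN with a slide term (adjusted p = 0.00854), with the block within each slide set (0.0245) and with DMSO as the comparator (0.00154), under which it was also called with MET (0.0009). PDK1 (0.18, NP), ADM (-0.16, MET) and ANKRD37 (0.17, PHEN) came next in size among those above background on all arrays. Of 5 glucocorticoid targets 4 were tested, FKBP5 not among them, and TSC22D3, which encodes GILZ, was at 0.94, 0.53 and 0.61, with an adjusted p of 0.0887 with NP. Under 4 alternatives it was called with NP, with an adjusted p of 0.0156 to 0.0357. PER1, a clock gene, was at 0.38 with MET and 0.38 with PHEN, and KLF9 at 0.03 with NP.

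The mRNA of the regulators themselves was also measured, and none of the 6 was called as fitted. ATF4 was at 8.40, 7.80 and 8.77 in DMSO and 8.77, 8.75 and 9.25 in NP, a difference of 0.60 (unadjusted p = 0.00571 in limma, adjusted p = 0.702). It was 7.98, 8.05 and 8.16 in W, 8.51, 8.60 and 8.65 in MET and 8.63, 8.60 and 8.67 in PHEN, differences of 0.52 and 0.57 with no overlap. TXNIP, a glucose-responsive gene whose protein is known to bind REDD1, had the largest difference of the 6, at -1.10 with NP, -1.61 with MET and -1.44 with PHEN (unadjusted p = 0.0264, 0.00338 and 0.00643 in limma). Its levels were 1.38, 1.47 and 0.32 in DMSO, 0.66, 0.69 and -1.47 in NP, 1.86, 2.16 and 2.09 in W, 0.33, 0.46 and 0.49 in MET and 0.58, 0.65 and 0.55 in PHEN. All MET and PHEN arrays lay below all W arrays, while NP and DMSO overlapped. With a slide term TXNIP was called with PHEN (adjusted p = 0.0418). With DMSO as the comparator FOXO1, FOXO3, HIF1A and NR3C1 were called lower with MET, beside 17.0% of all features called. FOXO3 was called lower with PHEN, beside 10.3%. For FOXO1, FOXO3, HIF1A and NR3C1 the differences lay between -0.21 and 0.18 over the 3 comparisons.

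Genes with the pattern most like SESN2 and most like DDIT4 were ranked by Pearson's r over the 15 arrays, each value taken relative to the arrays of its replicate number and slide set, among 13868 named genes above background on all arrays. The 15 points share 3 experiments and the vehicle arrays, so r is a description. With values taken this way, those of a DMSO and NP pair mirror each other. What remains is mostly the treated minus vehicle differences, so genes raised by all 3 compounds tend to a high r. Nearest to SESN2 were STC2, a secreted glycoprotein (r = 0.985), JDP2, a bZIP repressor (0.983), PCK2, mitochondrial PEP carboxykinase (0.983), CTH, cystathionine gamma-lyase (0.982), and NUPR1 (0.980). Nearest to DDIT4 were JDP2 (r = 0.981), ATF3, a bZIP stress factor (0.977), GARS1, glycyl-tRNA synthetase (0.968), PLEKHH3 (0.968) and VEGFA (0.967). SESN2 and DDIT4 had r = 0.958 with each other, which placed DDIT4 at rank 33 for SESN2 and SESN2 at rank 17 for DDIT4. EIF4EBP1 ranked 393 for SESN2 (r = 0.760), and SESN1 ranked 12989 (r = -0.663).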

How the data were processed

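RNA of 15 A2058 cultures was labelled with 1 dye and hybridized to 15 arrays. Per the file headers, the authors extracted spot intensities with Agilent Feature Extraction 10.7.3.1 (the submitters' notes name 9.1), with local background subtraction and spatial detrending. No normalization between arrays is in these deposited intensities. A second deposited table holds the authors' log2 values, aligned at the 75th percentile of each array with values under 4 set to 4, used only as an alternative.

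Processing was done with R 4.3.3, limma 3.58.1, statmod 1.5.0, Python 3.11.15, pandas 2.3.3 and numpy 2.4.6, and figures with matplotlib 3.10.9. Control spots were left out, 1853 outlier spots were set to missing, repeat spots were averaged per probe, and the log2 75th percentile over all 58201 probes of the array was subtracted. A probe was kept if every array of some group flagged it well above background and 8 or more arrays had a value, and the brightest stood for a gene, leaving 26825 features, 16584 of them with a symbol. Symbols came from RefSeq accessions, and gene coordinates were not used, since the array files name another build than the GRCh38.p14 of the promoters.

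A model of the 5 groups with the replicate number as a block was fitted over all 15 arrays with limma (empirical Bayes, two-sided, Benjamini-Hochberg adjustment over all features), and checked on simulated data. Calls needed an adjusted p up to 0.05 with a fold of 1.5 or more. The labels number the replicates 1 to 3 in each group. The numbers were taken to pair the arrays because the study's methods used a paired test. Deviations from group means correlated at r of 0.24 to 0.86 for same-numbered arrays of a treated group and its vehicle (9 pairs). For the others (18 pairs) r was -0.78 to 0.29. Replicate 3 was on another slide than replicates 1 and 2, so the slide enters these values. On the shared slide NP replicate 1 had r = 0.31 with DMSO replicate 1 and 0.29 with DMSO replicate 2. MET replicate 1 had 0.86 with W replicate 1 and -0.33 with W replicate 2. P-values of the model rest on the spread left after the block, pooled over the 5 groups and all 15 arrays and moderated by empirical Bayes. The 3 arrays per group limit the precision. The genes, the lists and the tests were chosen with earlier results of these data known. Genes named were the 10 brakes, called list genes, the 2 largest differences of each list and comparison among genes above background on all arrays, the regulators, and the 5 genes most like SESN2 and DDIT4. A list of stress targets and a regulator are not reported here. The alternatives are given in the closing section, and for normexp the median spot signal was taken.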

Additional observations from a re-analysis of the deposited data

How the results depend on the processing

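The adjusted calls depended on the processing more than the sizes did. The count of called genes among the 9 went from 1 to 0 with NP and with PHEN without the replicate block, without the filter on dim probes, with only the groups compared in the fit, and with the paired t-test of the methods after adjustment. At an unadjusted p that test called 1 with NP, beside 0.802% of all features, 1 with MET, beside 0.463%, and 1 with PHEN, beside 0.627%. Leaving out replicate 1, 2 or 3 gave a count of 0 each time with each compound. With DMSO as the comparator the count was 2 for MET, beside 17.0% of all features, and 2 for PHEN, beside 10.3%. Slides and vehicle cannot be told apart there. The counts stayed at 1 with NP, 0 with MET and 1 with PHEN under the other alternatives. These were a slide term, a block within each slide set, normexp and quantile normalization. The authors' table, probes above background on all arrays and the mean of a gene's probes completed them. In these settings 0.0447% to 0.235% of all features were called with NP, at most 0.00746% with MET and 0.0224% to 0.0596% with PHEN.

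The sign of a difference changed for 3 genes. TSC2 with NP was 0.0882 with the mean of its probes and -0.0770 to 0.0404 with a replicate left out. DEPTOR with NP was -0.0170 to 0.211 with a replicate left out. DEPTOR with MET was 0.0210 with normexp and 0.436 with DMSO as the comparator, and SESN3 with MET was 0.173 with DMSO as the comparator. SESN2 and DDIT4 were above 0 in every setting run. Without the filter on dim probes DDIT4L entered the test at levels not well above background on any array, so no fold is given for it. Dim probes such as SESN3 and DEPTOR had the widest intervals of the 9 genes.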
